A study of Ovis aries with 56 samples.

Results

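The genes examined here are 5 members of the axis that goserelin acts on and of the pituitary gland at its centre: the gonadotropin-releasing hormone (GnRH) receptor GNRHR, the luteinizing hormone receptor LHCGR, the follicle-stimulating hormone subunit FSHB, prolactin (PRL) and the pituitary transcription factor POU1F1. They were found by name in the array's probe annotation, which gave 9 probes on 13 spots out of 15008 distinct probes. A total of 674 genes had a probe with their name on this array. A probe was tested when every one of the 8 groups held 2 or more of its values. This left 12930 probes, among them 7 of the 9 member probes, and each of the 5 genes kept a tested probe. The annotation lists GNRHR as LOC443413 (NM_001009397), LHCGR as LHR (L36329), FSHB as FSHB (NM_001009798), PRL as PRL (NM_001009306) and POU1F1 as PIT1 (NM_001009350). No probe sequence or position on a genome build was used here.

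The arrays measured total RNA of the amygdala of Scottish Mule Texel cross sheep at 50 weeks of age. Goserelin acetate is a GnRH agonist (GnRHa in the labels). Treated animals received implants of 3.6 mg at intervals of 4 weeks. Treatment began at an age of 8 weeks in rams and 28 weeks in ewes. Controls were the untreated twins. Sex, treatment and side of the brain define the 8 groups. Each 2-colour array set 1 side of 1 animal against a pool of amygdala RNA of both sexes, sides and treatments, and the deposited value is the log2 of their ratio. Of 56 arrays 41 were used, from 13 males and 12 females. Control males gave 5 left and 4 right arrays, treated males gave 6 from either side, and every female group consisted of 5 arrays. The other 15 were left out because their spiked-in control transcripts were nearly flat (absolute slope at most 0.208, against 1.13 to 1.26), and 3 used arrays with a negative slope had their signs turned. The 3 are the left and right arrays of male GnRHa replicate 6 and the right array of female control replicate 7. The labels do not state which way the ratio runs. It was read as sample over pool, from the sizes on probe A_70_P066011, which stood at 0.85 ± 0.27 (SD, n = 21) in males and at -3.51 ± 0.76 (SD, n = 16) in females. Read as sample over pool, these values need a pool with 53.0% male RNA, and read the other way 95.9%. The labels name both sexes in the pool but not their shares, so this direction is likely and not settled, and every sign below rests on it. On the 3 turned arrays the dyes were taken as exchanged against the labels, and dyes are given in that sense throughout. The sample was then in Cy3 on every left and in Cy5 on every right female array used. By its label, the right array of female control replicate 7 is Cy3. Among the male arrays both dyes occurred in 3 of the 4 groups, and the 4 control right arrays were all Cy5.

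GnRH is released from the hypothalamus and acts on GNRHR, a Gq-coupled receptor of the pituitary gonadotrophs, which answer with luteinizing hormone and follicle-stimulating hormone. FSHB encodes the subunit that gives follicle-stimulating hormone its identity and pairs with the common alpha subunit CGA. LHCGR, a Gs-coupled receptor, is best known from the gonads. Prolactin is made by pituitary lactotrophs under the control of POU1F1, which also directs the growth hormone and thyrotropin lineages. A continuously present agonist desensitizes GNRHR in the pituitary and lowers gonadotropin release. In rats GNRHR is also known from the hippocampus, a neighbour of the amygdala.

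All 13 spots of these genes were as dim as the negative control spots of the array. In such bulk tissue fewer cells of a type and less RNA per cell cannot be told apart. The authors' mean log2 brightness over all arrays was 5.59 and 5.22 for the GNRHR probes, 5.49 and 5.47 for LHCGR, 5.62 for FSHB, 5.18 to 5.55 for the 6 PRL spots, and 5.32 and 5.26 for POU1F1. The 77 negative control spots of the array ranged from 5.07 to 5.69 with a median of 5.32, so every member spot lay inside that range. All 15208 non-control spots had a median of 5.78 and reached 12.82, and 45.3% of all probes were not brighter than the brightest negative control spot. Values were missing on 7.32 to 58.5% of the used arrays for the member spots (median 26.8%) and on 22.0 to 92.7% for the negative control spots (median 56.1%), while the median non-control spot had no missing value. The SD between arrays of a group had a median of 1.01 on the log2 scale for the member spots, 1.08 for the negative control spots and 0.243 for probes with a mean brightness of at least 7.

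The log2 ratios of the members were also not values of their own. Over the 13 spots and 41 arrays there were 368 ratios, and each of the 368 was shared, to the last deposited digit, with at least 1 other spot of the same array. A member's ratio was found in a median of 137 spots of its array, itself included, and in up to 408. For the negative control spots 99.9% of the ratios were shared, with a median of 140.5 spots at the same value. Among spots with a mean brightness of at least 7, 4.63% of the ratios were shared and the median ratio occurred once. On an array, 4016 to 6540 dim spots took only 298 to 906 distinct ratios, whereas 2803 bright spots took 2712 to 2788. On 30 of the 41 arrays spots of different member genes had the identical ratio. The differences below are therefore differences between mean log2 ratios of stepped values near background, and no fold change of a transcript is stated from them.

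**Figure D1:**
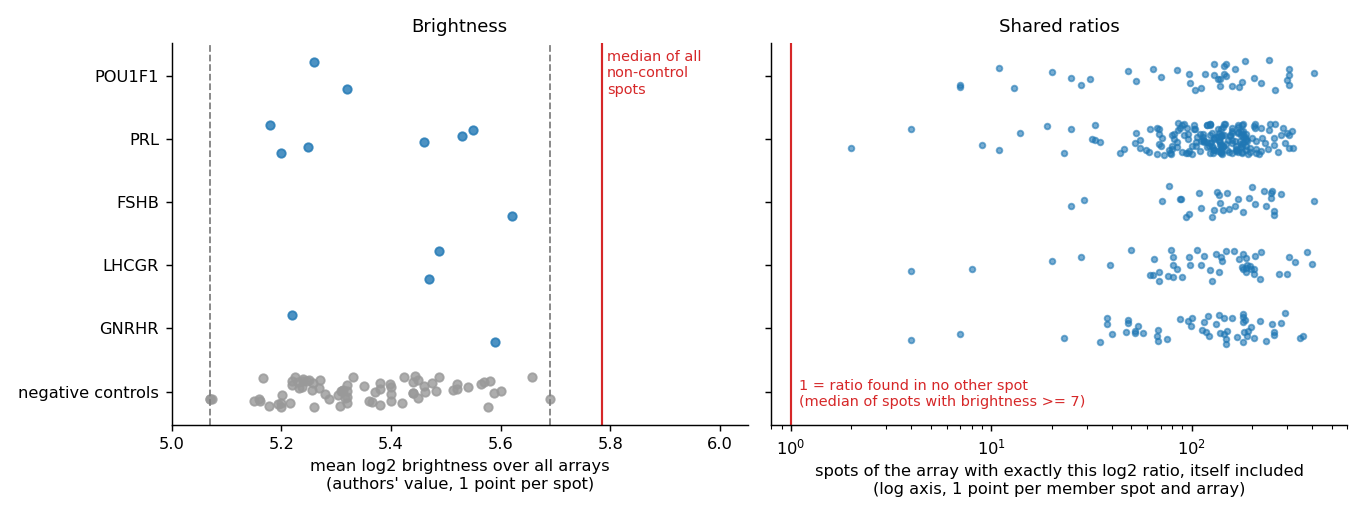
Left, the authors' mean log2 brightness of each negative control spot (grey) and each member spot (blue), with dashed lines at the lowest and highest negative control spot (5.07 and 5.69) and a red line at the median of all non-control spots (5.78). Right, for each member spot on each array, how many spots of that array had exactly the same log2 ratio, on a log axis: all 368 points lie to the right of 1, with a median of 137.

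The tissue label was checked against marker genes by the same yardstick, the brightest negative control spot. All 5 astrocyte markers with a probe (AQP4, GFAP, GJA1, SLC1A2 and SLC1A3) were brighter, as were the neuronal receptor subunit GRIA1, the peptide genes SST, NPY and TAC1 of 4 measured (GAL was not), and 3 of 4 microglial markers. Of the 6 anterior pituitary hormone genes with a probe, LHB (8.89) and POMC (6.19) were brighter, and PRL, FSHB, GH1 (5.35) and CGA (5.39) were not. The other LHB probe had a brightness of 5.44, inside the negative control range, so the LHB probes did not agree. Of the 2 choroid plexus markers with a probe, TTR was bright (8.59) and AQP1 (5.24) lay in the range of the negative controls. Their part in the results was not tested. No oligodendrocyte marker of the list had a probe with its name.

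Across 16 comparisons only 1 test of a member probe passed an adjusted p of 0.05 (limma-type linear model with dye as a term and animal as a random block, Benjamini-Hochberg over all probes tested). It was the sex difference with GnRHa on the left side for 1 of the GNRHR probes, described below. Of the other comparisons, no member was called in any, and the share of all probes called was 0% for the GnRHa effect in males, in females, in females on the left and on the right and for the sex by GnRHa interaction. It was 1.04% for the sex difference in controls, 0.155% for the sex difference with GnRHa, 0.139% for right against left, 0.302% and 0.0387% for the GnRHa effect in males on the left and right, 5.11% and 0.0773% for the sex difference in controls on the left and right, 0.0696% for the sex difference with GnRHa on the right, and 0.139% and 0.00773% for the GnRHa by side interaction in males and females. For the sex difference with GnRHa on the left, where 1 of 7 member probes was called, it was 2.19%. At an unadjusted p below 0.05 there were 23 of 112 member tests (20.5%), against 11.3% of the tests of all probes and 10.2% of those of probes not brighter than the brightest negative control spot. The 112 tests share arrays and probes, so they are not independent.

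The 4 comparisons that average over sides had standard errors of 0.27 to 0.64 for the member probes. Under the GnRHa effect in males 1 of the 7 probes had an unadjusted p below 0.05, under the GnRHa effect in females 0, under the sex difference in controls 1 and under the sex difference with GnRHa 1. Of all probes 11.9%, 3.85%, 15.2% and 7.77% had one in these comparisons, in the same order. For comparison, the median standard error of probes with a brightness of at least 7 was 0.11 to 0.12 in these comparisons. The intervals of the members were thus wide: the 95% interval for the GnRHa effect in males ran from -0.20 to 2.53 for the brighter GNRHR probe and from -0.19 to 1.91 for LHCGR. Labels were also permuted over animals, each at the mean of its measured sides or at its only measured side (exact permutation test, two-sided). In 2 of 28 member tests the p of this exact permutation test was below 0.05 before any adjustment, with a lowest value of 0.0256. No share over all probes is given for it. The test of GNRHR probe A_70_P051161 in males, with 3 against 3 animals, gave 0.1 (exact permutation), the smallest p it allows, so it could not pass. A p that missed the threshold does not show that the RNA was at the same level.

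**Figure D2:**
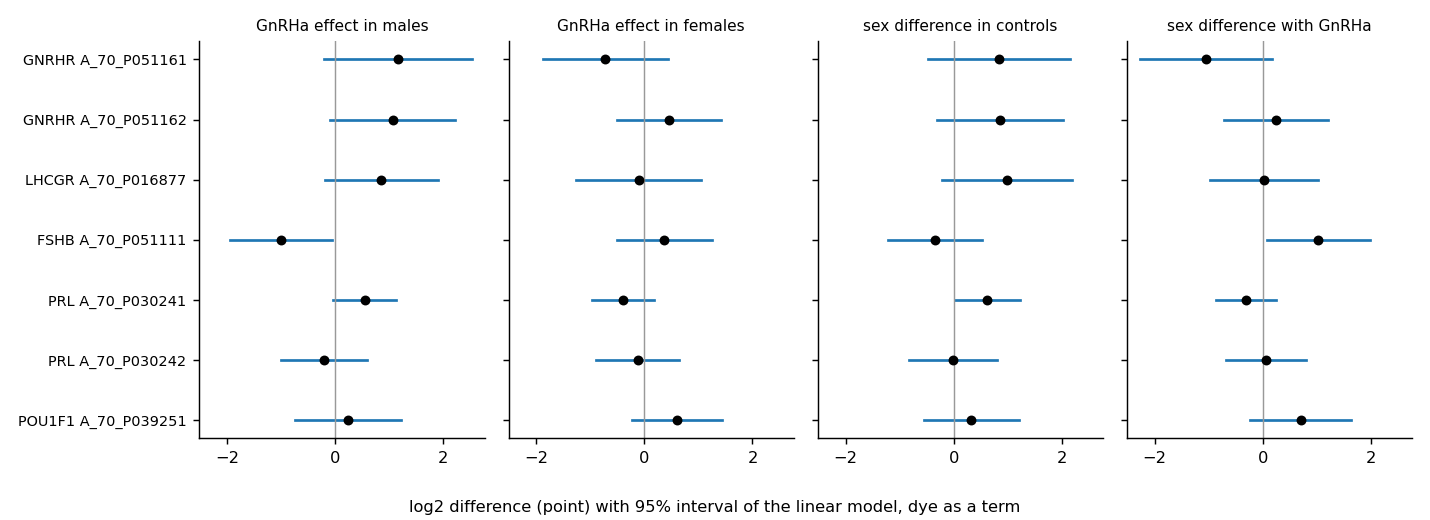
Log2 differences of the 7 tested member probes (points) with 95% intervals of the linear model (lines) in the 4 comparisons that average over sides, GnRHa minus control or female minus male. Most intervals include 0, and the exceptions are FSHB in males (GnRHa minus control, -1.0), FSHB with GnRHa (female minus male, 1.03) and the PRL probe of 5 spots in controls (female minus male, 0.63), none with an adjusted p below 0.05.

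GNRHR, the direct target of goserelin, was represented by probes A_70_P051161 (23 of 41 arrays with a value) and A_70_P051162 (33 of 41). On probe A_70_P051161 the male control values were -0.38 and -0.72 on the left and -1.17 and 0.33 on the right. Male GnRHa values were 1.21, 2.31 and 2.08 on the left and 1.90, -1.97 and -1.65 on the right. Female GnRHa values were -1.28, -1.41 and 0.83 on the left and -1.08, -0.51 and 1.39 on the right. Female control values lay between -1.39 and 1.35 on the left (n = 3) and between 0.04 and 1.52 on the right (n = 4). The 3 treated male left arrays lay above the control left arrays of males and the GnRHa left arrays of females, but a female control left array (1.35) exceeded 1 of them. The treated male right arrays were on both sides of 0.

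With GnRHa, the left amygdala of females was below that of males on this probe by -3.33 ± 0.82 (SE, adjusted p = 0.0462, 3 against 3 arrays). The groups did not overlap, as in 5.19% of all tested probes in that comparison. Most tested probes (9370 of 12930) had a value on every array. Groups with fewer values are more often free of overlap, so this share and those below are not a like-for-like yardstick. On the right the sex difference with GnRHa had the opposite sign, 1.23 ± 0.82 (adjusted p = 0.577, 3 against 3 arrays). With the twin pair as a random replicate block the call was lost (0 members called). It was also lost in 21 of 41 fits that each left out 1 array. Among these was every fit without an array of either group, including arrays with no value on this probe. The probe itself was tested in only 37 of the 41 fits. Without any 1 of its measured male control arrays (2 left, 2 right) it had too few values and counted as not called. The GnRHa effect in males on the left was 3.25 ± 0.90 (adjusted p = 0.115, 3 against 2 arrays), without overlap of the groups, which held for 2.73% of all probes, and on the right it was -0.93 ± 0.90 (adjusted p = 0.799). The GnRHa by side interaction in males, right minus left, was -4.18 ± 1.27 (adjusted p = 0.210). Over both sides the GnRHa effect was 1.16 ± 0.64 in males (adjusted p = 0.503) and -0.72 ± 0.55 in females (adjusted p = 1.00).

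The other GNRHR probe did not show this. For the sex difference with GnRHa on the left A_70_P051162 gave 0.78 ± 0.65 (adjusted p = 0.490, 5 against 5 arrays), the opposite sign. Its male GnRHa left values were 2.65, 0.43, -1.76, -0.51 and 0.07, and its female GnRHa left values -0.02, -0.40, -0.31, 1.19 and 0.49, so these groups overlapped. Its GnRHa effect in males was 1.06 ± 0.56 (adjusted p = 0.464) and in females 0.46 ± 0.47 (adjusted p = 1.00). Over the 18 arrays on which both GNRHR probes had a value, Pearson's r between them was -0.16, and 10 of the 18 had the same sign. For pairs of probes of another gene the median r was 0.91 where both had a brightness of at least 7 (75 pairs) and 0.08 where neither was brighter than the brightest negative control spot (240 pairs).

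Among treated males, values of the called probe differed between dyes. On A_70_P051161 the fitted difference of samples in Cy5 from samples in Cy3 was -2.35 ± 0.76, and on A_70_P051162 it was 1.98 ± 0.57. For A_70_P051161 both dyes had values within a group only in the 6 treated male arrays, so its fitted difference rests on them. The male values that follow are from those same arrays. The 3 highest values of treated males on A_70_P051161 (2.31, 2.08 and 1.90) came from Cy3 arrays, and the 3 Cy5 arrays stood at 1.21, -1.97 and -1.65. In 2 treated males the Cy3 array of the left side read 2.31 and 2.08 while the Cy5 array of the right side read -1.97 and -1.65. In another treated male the dyes were the other way round, and the left (Cy5) read 1.21 and the right (Cy3) 1.90. In females dye and side coincide, and the GnRHa means were -0.62 in Cy3 (left) and -0.07 in Cy5 (right). The female control means were 0.18 in Cy3 (left) and 0.54 in Cy5 (right). Restricted to Cy3 arrays, an alternative added after the data were seen, the sex difference with GnRHa on the left was -2.82 ± 0.88 (adjusted p = 0.193, 3 against 2 arrays). With no dye term in the model 0 members were called in that comparison, and the part of the dye in the called value was not tested.

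**Figure D3:**
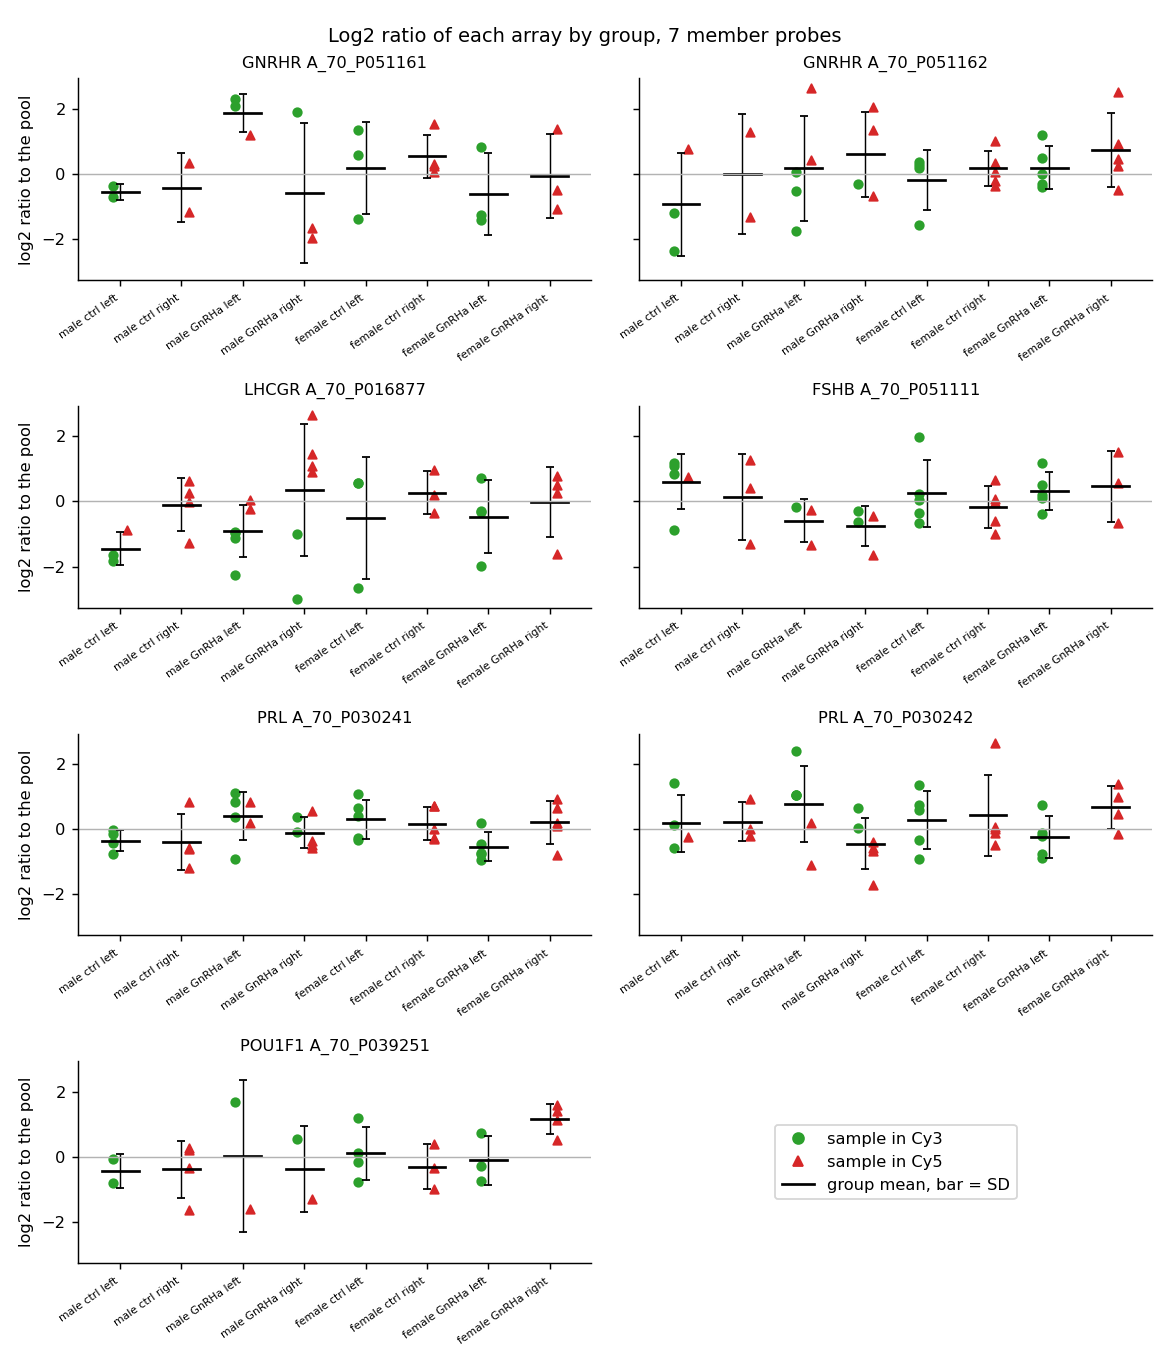
Log2 ratio to the pool of every used array with a value, for the 7 tested member probes by group, with green circles for Cy3 and red triangles for Cy5 samples, the dyes of turned arrays exchanged. Black lines are group means and bars SD. GNRHR A_70_P051161 stands at 1.21 to 2.31 in treated male left arrays, A_70_P051162 at -1.76 to 2.65 in the same group, and on LHCGR all 8 male Cy3 arrays lie below 0.

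LHCGR, the receptor through which luteinizing hormone acts on the gonads, had a tested probe, A_70_P016877, with values on 33 of 41 arrays. Over both sides male control arrays ranged from -1.83 to 0.62 with a median of -0.87 (n = 7), and male GnRHa arrays from -2.98 to 2.65 with a median of -0.60 (n = 12). Female control arrays ranged from -2.66 to 0.96 with a median of 0.38 (n = 6), and female GnRHa arrays from -1.98 to 0.77 with a median of -0.02 (n = 8). All 4 groups overlapped. The GnRHa effect was 0.86 ± 0.51 in males (adjusted p = 0.529) and -0.11 ± 0.56 in females (adjusted p = 1.00), and the sex difference was 0.99 ± 0.59 in controls (adjusted p = 0.441) and 0.03 ± 0.48 with GnRHa (adjusted p = 0.990).

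The LHCGR values of males differed between dyes. In males the 8 Cy3 arrays lay between -2.98 and -0.95, all below 0, and the 11 Cy5 arrays between -1.27 and 2.65, with 7 above 0. The fitted dye difference was 2.13 ± 0.53, while its right against left difference was -0.65 ± 0.53 with the dye term and 0.96 ± 0.44 without it. The other LHCGR probe, A_70_P016876, had values on 19 arrays and none on the 6 male GnRHa right arrays, so it was not tested. It correlated with A_70_P016877 at r = 0.40 over 16 shared arrays, 12 of them of the same sign.

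FSHB, the beta subunit of follicle-stimulating hormone, had the brightest member spot (5.62, above 75 of the 77 negative control spots). Male control arrays ranged from -1.32 to 1.28 with a median of 0.81 (mean 0.43 ± 0.99, SD, n = 8), and male GnRHa arrays from -1.65 to -0.18 with a median of -0.44 (mean -0.68 ± 0.59, SD, n = 7). All 7 treated male arrays were below 0 and 6 of 8 control arrays above it, with an overlap of the groups. The treated array at the median, right replicate 6, is 1 of the turned arrays and was deposited with a positive sign. Female control arrays ranged from -0.99 to 1.99 with a median of 0.02 (n = 10) and female GnRHa arrays from -0.67 to 1.52 with a median of 0.34 (n = 8). The GnRHa effect was -1.0 ± 0.46 in males (adjusted p = 0.384) and 0.37 ± 0.43 in females (adjusted p = 1.00), and the difference of these effects, females minus males, was 1.37 ± 0.63 (adjusted p = 0.610).

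By animal, the FSHB effect in males was -0.92 over 6 treated and 6 control animals (exact permutation p = 0.108, two-sided). The FSHB sex difference was -0.34 ± 0.43 in controls (adjusted p = 0.768) and 1.03 ± 0.46 with GnRHa (adjusted p = 0.597). Over 5 female and 6 male treated animals the latter was 1.01 (exact permutation p = 0.0390, two-sided, not adjusted for the 28 such tests). Values were missing on 5 of 12 treated male and 1 of 9 control male arrays. The dye difference of FSHB was -0.36 ± 0.53. No second probe of FSHB was on the array, so the values have no check by another sequence.

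PRL, the lactotroph hormone, offers a direct view of the measurement error, because 1 of its probes, A_70_P030241, is spotted 5 times on each array. On the 38 arrays with at least 2 values the copies differed by an SD of 1.08, pooled over arrays, with a median span from lowest to highest of 2.10 and a largest span of 3.56. Copies of the same probe had ratios of both signs on 30 of the 38 arrays. The mean of the copies then varied between arrays of a group with an SD of 0.60. Other repeated probes differed between copies by a median SD of 1.05 where they were not brighter than the brightest negative control spot (26 probes) and of 0.169 where they were brighter (23 probes).

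**Figure D4:**
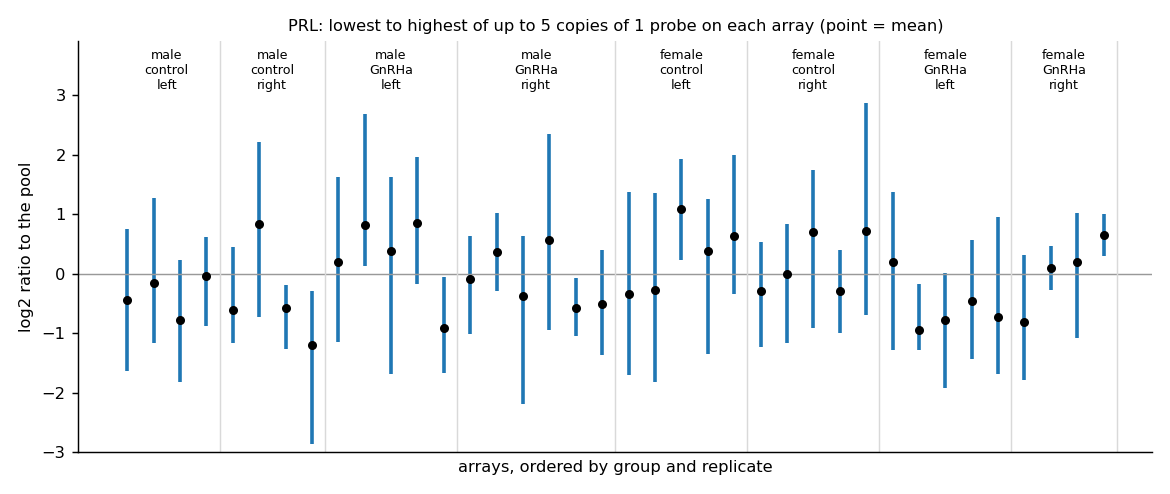
Lowest to highest log2 ratio (blue lines) and mean (black points) of the copies of PRL probe A_70_P030241 on each of the 38 arrays with at least 2 copies measured, ordered by group and replicate. On 30 of 38 arrays the line crosses 0, and the median line is 2.10 long.

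On that probe male control arrays ranged from -1.21 to 0.83 with a median of -0.51 (n = 8) and male GnRHa arrays from -0.92 to 1.10 with a median of 0.27 (n = 12). Female control arrays ranged from -0.33 to 1.08 with a median of 0.19 (n = 10) and female GnRHa arrays from -0.94 to 0.91 with a median of -0.18 (n = 10). The ranges of the 4 groups overlapped. The GnRHa effect was 0.55 ± 0.28 in males (adjusted p = 0.449) and -0.40 ± 0.28 in females (adjusted p = 1.00), with a difference of these effects of -0.95 ± 0.40 (adjusted p = 0.582). The sex difference in controls was 0.63 ± 0.29 (adjusted p = 0.300), and over 7 female and 6 male animals it was 0.72 (exact permutation p = 0.0256, two-sided, not adjusted for the 28 such tests).

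The other PRL probe, A_70_P030242, gave other values in the same comparisons. Its GnRHa effect was -0.21 ± 0.39 in males (adjusted p = 0.885) and -0.13 ± 0.38 in females (adjusted p = 1.00), and its sex difference in controls was -0.02 ± 0.40 (adjusted p = 0.987). The PRL probes agreed in sign and differed in size for the sex difference with GnRHa on the left, at -0.98 ± 0.38 (adjusted p = 0.124) and -1.46 ± 0.49 (adjusted p = 0.0873). On the right A_70_P030241 stood at 0.34 ± 0.38 (adjusted p = 0.763) and A_70_P030242 at 1.57 ± 0.52 (adjusted p = 0.249), both of opposite sign to the left. Over 37 arrays with both probes Pearson's r was 0.36, and 24 had the same sign.

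POU1F1, the transcription factor of the prolactin, growth hormone and thyrotropin cells, was measured on 24 arrays with probe A_70_P039251. In the female GnRHa right group its values lay between 0.51 and 1.57 (mean 1.15 ± 0.47, SD, n = 4), above the 3 female control right arrays, which lay between -0.99 and 0.39. That comparison gave 1.41 ± 0.53 (adjusted p = 0.681), and 2.06% of all probes likewise had no overlap in it. Most tested probes had a value on every array, so that share comes mainly from larger groups. On the left, where the groups overlapped, the GnRHa effect in females was -0.20 ± 0.53 (adjusted p = 0.995). Over both sides it was 0.60 ± 0.40 in females (adjusted p = 1.00) and 0.23 ± 0.46 in males (adjusted p = 0.896). With GnRHa on the right the sex difference was 2.81 ± 0.70 (adjusted p = 0.139, 4 against 2 arrays). The groups overlapped there, with values of 0.51 to 1.57 in females and -1.31 to 0.55 in males. Their means before the dye term were 1.15 and -0.38.

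The other POU1F1 probe, A_70_P039252, was not tested in the main fit, and its few female values lay the other way. On the right its only GnRHa array stood at -0.18, below the 3 control arrays (0.04, 0.31 and 1.48). Over both sides its 4 female GnRHa arrays were all below 0 (mean -0.87 ± 0.58, SD), against a mean of 0.37 ± 0.78 (SD, n = 4) in female controls. Of these GnRHa arrays 3 were left (Cy3), and of these controls 3 were right (Cy5). Treatment, side and dye are thus mixed in the means. The fit with no minimum of values per group gave a GnRHa effect in females of -0.81 ± 0.62 (SE). Over the 10 arrays shared by both POU1F1 probes r was 0.14. POU1F1 had the largest fitted dye difference of the members, -2.58 ± 0.70, next to a right against left difference of 2.07 ± 0.60 (adjusted p = 0.176). All 7 female right arrays with a value were Cy5 and all 7 left arrays Cy3 (with replicate 7 of the controls, a turned array, counted as Cy5), so in females side and dye cannot be told apart. The dye term rests on the male arrays.

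Right against left was opposite in sign to the dye difference for each of the 7 probes. Side and dye coincide in females and largely do so in males, so these 2 estimates of 1 fit are tied. Opposite signs are therefore not a separate result. For GNRHR A_70_P051161 right against left was 1.61 ± 0.74 (adjusted p = 0.388) with the dye term and -0.35 ± 0.48 without it. For GNRHR A_70_P051162 it was -0.95 ± 0.54 (adjusted p = 0.488) with the dye term. Without the dye term the sign turned for GNRHR, LHCGR and FSHB and stayed positive for PRL (0.03 ± 0.18) and POU1F1 (0.13 ± 0.38), each on its brightest probe. The absolute dye difference had a median of 1.98 over the 7 member probes, of 0.69 over 4768 tested probes not brighter than the brightest negative control spot and of 0.15 over 2791 probes with a brightness of at least 7.

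**Figure D5:**
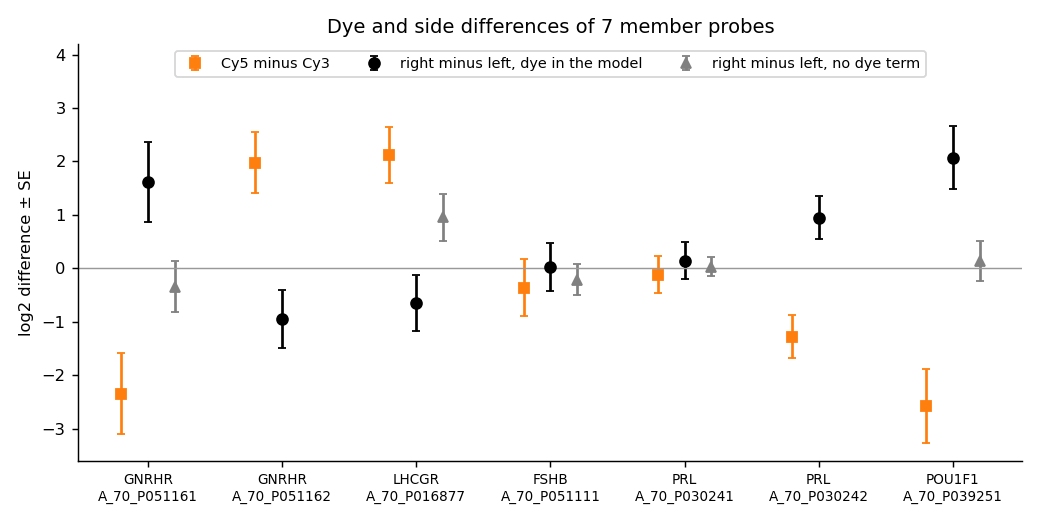
Fitted difference of Cy5 from Cy3 (orange squares), right minus left with dye in the model (black circles) and, for the brightest probe of each gene, right minus left with no dye term (grey triangles), with SE as bars, on the log2 scale. In each of the 7 probes the black circle lies on the other side of 0 from the orange square, and the grey triangle lies across 0 from the black circle for GNRHR (-0.35), LHCGR (0.96) and FSHB (-0.22). Side and dye largely coincide on these arrays, so squares and circles are not independent.

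Values of the left and the right amygdala of an animal can also be set side by side. Among animals with both sides measured, Pearson's r between sides was -0.53 for GNRHR A_70_P051161 (7 animals), -0.02 for A_70_P051162 (12), -0.36 for LHCGR (11), -0.00 for FSHB (9), -0.12 and -0.05 for the PRL probes (15 and 13) and 0.20 for POU1F1 (7). The sides share the animal and, in females, differ in dye. Over probes with a brightness of at least 7 the median r between sides was 0.15, and over probes not brighter than the brightest negative control spot it was -0.06.

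Around the members, the GnRH and gonadotropin axis had 15 of 19 listed genes with a tested probe, and 7 of them were brighter than the negative controls. In the sex difference in controls 1 of 15 passed, against 1.04% of all probes: INHBA, the inhibin and activin beta A subunit, was lower in females by -1.08 ± 0.25 (adjusted p = 0.0323, brightness 6.80), and with GnRHa its difference was -0.90 ± 0.24 (adjusted p = 0.0979). On the left in controls the activin receptor ACVR2A was lower in females at -1.06 ± 0.24 (adjusted p = 0.0132) and the inhibin alpha subunit INHA higher at 0.90 ± 0.23 (adjusted p = 0.0215), where 5.11% of all probes were called. INHBA, ACVR2A and INHA each have another tested probe, whose values are not given here. In the GnRHa effect 0 of 15 passed in either sex, with 2 at an unadjusted p below 0.05 in each, against 11.9% of all probes in males and 3.85% in females. Lowest in p were INHA (0.44 ± 0.17, adjusted p = 0.281) and FSHB in males and ACVR1B (-0.86 ± 0.35) and ACVR2B (-0.23 ± 0.11) in females, each of the latter with an adjusted p of 1.00. The median difference of the 15 genes was -0.16 in males and -0.11 in females, against 0.00 and -0.01 over all probes. The hypothalamic hormone itself, GNRH1, was as dim as the members (5.42) and stood at 0.33 ± 0.63 in males and -0.16 ± 0.64 in females.

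Of 24 listed pituitary hormones and their transcription factors 14 were tested and 5 were brighter than the negative controls. None of the 14 passed in the 4 comparisons that average over sides, in which 0 to 1.04% of all probes were called. At an unadjusted p below 0.05 there were 0 to 2, against 3.85 to 15.2% of all probes. The brighter LHB probe, the subunit of luteinizing hormone, differed by 0.03 ± 0.09 with GnRHa in males and by 0.13 ± 0.09 in females, and POMC, the precursor of corticotropin and endorphin, by 0.31 ± 0.18 and -0.14 ± 0.18. POMC had the lowest p of this list for the sex difference with GnRHa, at -0.49 ± 0.18 (adjusted p = 0.391). Of the prolactin and growth hormone family and its signalling, 6 of 15 listed genes were tested and 0 passed in those 4 comparisons. At an unadjusted p below 0.05 there were 0, 0, 1 and 0 in the order of the plot of effects. Among all probes the shares were 11.9%, 3.85%, 15.2% and 7.77% in that order. The prolactin receptor PRLR, named PR in the files, had a brightness of 5.45 on its brightest tested probe, in the range of the negative controls.

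Downstream of GNRHR only FOS, JUN and EGR1, immediate early genes, had a probe with their name among 19 listed, and all were brighter than the negative controls. None passed in those 4 comparisons, in which 0 to 1.04% of all probes were called. The lowest p for the GnRHa effect in males was that of JUN at -0.17 ± 0.09 (adjusted p = 0.481). Downstream of LHCGR 6 of 14 listed genes were tested. CREB1, the cAMP response element binding protein, was lower in females in the sex difference in controls on the left at -0.70 ± 0.20 (adjusted p = 0.0345). It was 1 of 6 called there, where 5.11% of all probes were called. Another tested CREB1 probe is not given here. Over both sides CREB1 stood at -0.52 ± 0.15 (adjusted p = 0.0773). Its GnRHa effect in males was -0.39 ± 0.14 (adjusted p = 0.255), the lowest p of that list.

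The named genes most like each member over the arrays were sought with the fitted dye difference taken out of both. For GNRHR, over at least 20 shared arrays, they were CR2 (r = 0.82), PMCH (0.74) and PLIN5 (0.74) among 486 genes whose r ranged down to -0.77. LHCGR was nearest to MC5R (0.62), MMP2 (0.58) and IGF1R (0.56), FSHB to SMAD2 (0.56) and ATP7B (0.48), and PRL to ACE (0.64), IL2RA (0.63) and IL1RN (0.51). POU1F1 was nearest to TIE1 (0.79), FTH1 (0.76) and SMAD3 (0.76). The lowest r was -0.66 for LHCGR, -0.57 for FSHB, -0.63 for PRL and -0.71 for POU1F1. Of the 15 nearest genes, including an FSHB neighbour not named here, 10 were not brighter than the brightest negative control spot. The arrays are shared by all genes and values recur between spots, so these likenesses are descriptions.

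In the authors' deposited table of each group against the pool, no member passed. Its log2 fold changes for the 13 spots in 8 groups ran from -0.14 to 0.24, and its adjusted p-values were at least 0.183. Of the 104 entries 4 (3.85%) had an unadjusted p below 0.05 in the authors' deposited table, of which 3 were PRL spots and 1 FSHB. No share over all spots is given for the authors' values, so these counts have no background to be read against. The largest fold change in the authors' deposited table was 0.24 for GNRHR A_70_P051161 in the male control left group. The mean of the used columns of that group was -0.55, from 2 values on 5 used arrays. The group held 7 deposited arrays, so the 2 figures may rest on different arrays. For spots not brighter than the brightest negative control spot, the slope of the fold changes of the authors' deposited table on the mean ratio of the group's columns was 0.0369 to 0.0847 over the 8 groups, with an r of 0.33 to 0.46. For spots with a brightness of at least 7 the slope was 0.515 to 0.635 and r 0.80 to 0.93. The deposited ratios and the deposited fold changes thus lie on different scales for dim genes such as these.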

How the data were processed

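RNA was extracted with Trizol, per the labels' protocols. The submitters' processing notes name Agilent Feature Extraction 9.1. The authors deposited log2 ratios per spot and array, a scale read from the values and not stated. Per the file headers, their table per group holds a log2 fold change, a mean log2 brightness, a p-value, an adjusted p-value and a test score for every spot. How the authors corrected, normalized and filtered is not given in the sources used here. Brightness is their mean over all arrays, so it does not differ between groups.

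The members and the gene lists were chosen with earlier results of these data known. Genes were named by the accession, symbol or gene number in the probe annotation through RefSeq (ARS-UI_Ramb_v3.0), which gave 1174 named probes of 674 genes. The array's E1A spike-ins gave each column's slope: columns below 0.5 in absolute slope were left out and columns of negative slope were multiplied by -1, with their dyes exchanged. Spots of one probe were averaged. Each probe with 2 values or more in every group was fitted with the 8 group means and dye as fixed terms and animal as a random block (within-animal correlation 0.147), with limma 3.58.1 and statmod 1.5.0 in R 4.3.3. Standard errors were computed by generalised least squares over the values present and moderated by limma's method, and p-values were adjusted by Benjamini-Hochberg over all probes of a comparison, with a threshold of 0.05. Missing values were not imputed. The code was tested on simulated data. Exact permutation tests ran over animals, with sides averaged where both had a value and the only side used otherwise. They took no account of dye or twin pair. For a gene, the named probe is the brightest tested one unless another is given, and the brightness limit of 7 marks bright probes. Likeness to a member needed at least 20 shared arrays. A further gene like FSHB is not reported here. List genes are named, by their brightest tested probe, where they were called in a comparison and otherwise up to 2 of lowest p. GNRH1, LHB and PRLR were named outside this rule after their values were seen. The fit is over 41 arrays of 25 animals, so its p-values rest on the spread between arrays, with sides of an animal tied only by that correlation. Arrays limit the precision through their number. Twins pair the samples per the labels. Over 14 pairs of arrays of twins of one side, r over 9370 probes was -0.10 to 0.25 (median -0.01), and 6 were above 0.1.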

Additional observations from a re-analysis of the deposited data

Results flagged for a closer look

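In 35 groups of 4 to 10 arrays, 3 member values stood far from the others of their group, by the gap to the nearest value divided by the range of the group (Dixon's criterion). Chance gives such a gap in about 1 in 20 groups. On GNRHR probe A_70_P051162 the left array of female control replicate 7 read -1.58, while the 3 others lay between 0.18 and 0.35. FSHB read -0.88 on the left array of male control replicate 5, against 0.76 to 1.2 on the 4 others. PRL probe A_70_P030242 read 2.63 on the right array of female control replicate 7, against -0.48 to 0.05 on the 4 others, and this is an array whose sign was turned. Leaving out female control left replicate 7 changed the count of member probes called for the sex difference in controls on the left from 0 to 1. In the main fit 5.11% of all probes were called there, and the share without that array is not given.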

How the results depend on the processing

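Of 2227 values under alternatives 2154 counted as unchanged. Among these, 1388 were single-member differences that kept their direction and their side of the threshold. The other 766 were counts of members called that stayed equal, mostly at 0. No alternative gave 1 of the 30 single-member differences an adjusted p below 0.05. The 1 member called for the sex difference with GnRHa on the left, GNRHR, became 0 with all 56 columns as labelled, with the turned columns left out, with no dye term, with the twin pair as a random replicate block, with quantile normalization, with no minimum of values per group, with only the groups of the comparison and, chosen after seeing the data, with only Cy3 arrays of the side. With no minimum the difference stayed at -3.33 (adjusted p = 0.0539). With array weights 1 member was called for that difference on the right, where 174 of 12930 probes were called, against 9 in the main fit. On the left 3 members were called with these weights, where 2208 of 12928 probes were called, against 283 in the main fit. Leaving out 1 array at a time gave 0 to 1, and 0 in 21 of 41 fits: all 5 female GnRHa left, all 6 male GnRHa left, 3 of 6 male GnRHa right, 3 of 5 female control right, 2 of 5 male control left and 2 of 4 male control right arrays. In the fits without those male control arrays the probe had too few values to be tested, so it was tested in 37 of the 41. For the sex difference in controls on the left, leaving out 1 array at a time also gave 0 to 1.

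The sign turned in 10 of the 30 differences, all without an adjusted p below 0.05, and the cause was not tested. With no dye term right against left was -0.22 for FSHB, -0.35 for GNRHR and 0.96 for LHCGR. With all 56 columns it was -0.15 for GNRHR and 0.094 for LHCGR, the sex difference in controls was -0.0067 for GNRHR, the GnRHa effect in females was 0.18 for LHCGR and the sex by GnRHa interaction was -0.16 for POU1F1. With the twin pair as a fixed replicate block, which could be fitted only for the GnRHa effects, the effect was 0.30 for LHCGR in females and -0.54 for POU1F1 in males. With array weights the GnRHa effect in females was 0.064 for GNRHR. The LHCGR sex difference with GnRHa was -0.25 with array weights, -0.012 with quantile normalization and -0.036 over animals. Leaving out 1 array gave -0.17 to 0.23 for FSHB right against left, -0.66 to 0.18 for LHCGR in females, -0.20 to 0.31 for LHCGR with GnRHa between the sexes and -0.026 to 0.31 for PRL right against left. Over animals, the exact permutation test passed 0.05 unadjusted for FSHB with GnRHa and PRL in controls, between the sexes. The alternative of probes measured on every array (9370) holds no member. Signal at background limits all of these values.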
